A study of Mus musculus with 6 samples.

Results

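The choroid plexus epithelial transcripts described here are *Ttr*, *Folr1*, *Kl*, *Clic6*, *Kcne2*, *Slc4a5*, *Enpp2*, *Aqp1*, *Otx2* and *F5*. They were taken by gene symbol, without regard to their values, and are 10 of the 24421 genes in the deposited tables. All 10 were found, each once. The choroid plexus epithelium lines the vascular folds of the brain ventricles and secretes the cerebrospinal fluid. Its cells move ions, water and folate from blood to ventricle and release carrier proteins, with transthyretin as their best known product. The epithelium borders the hippocampus along the choroid fissure but is not made of astrocytes, so these transcripts mark a cell type that the labels of the libraries do not name.

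The libraries were made from hippocampal ACSA-2+ astrocytes of C57BL/6 mice with the genotype *Siglech* dtr/dtr. MACS was used for the isolation, after CD11b+ cells had been removed on a first column. These mice carry the diphtheria toxin receptor in the *Siglech* gene, which is active in microglia, and both groups carried it on both alleles. By the study's account, some macrophages of the choroid plexus also express Siglec-H. The control group received PBS and the other group DT at 50 μg/kg, intraperitoneally, and tissue was taken 2 days later. There were 3 PBS libraries and 3 DT libraries, with 2 mice pooled for each, and the pools of a group came from independent experiments, so p-values measure the spread between such pools. By the study's methods the mice were adult males, and homozygous animals also have reduced Siglec-H protein. The question behind the comparison was how hippocampal astrocytes differ once microglia have been ablated.

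The 6 libraries held between 21704891 and 32933975 reads assigned to genes. *Siglech* had 21, 71 and 42 reads in the PBS libraries and 0 in every DT library. The astrocyte marker list of 9 genes (*Aqp4*, *Atp1b2*, *Slc1a2* and others) had a summed level between 26050 and 27330 TPM in the PBS libraries and between 26630 and 28310 TPM in the DT libraries, so the labelled cell type was present throughout. The even sum does not hold for each gene. *Slc1a2* ran from 9271 TPM in DT 3 to 10462 TPM in DT 1, but *Aqp4* from 378 TPM in PBS 3 to 1666 TPM in DT 3. *Gfap*, the astrocyte intermediate filament, had 20217, 32334 and 24953 reads after PBS and 96548, 118377 and 80654 after DT. Over all genes, limma called 84 of 15137 genes tested higher in the DT group and 24 lower at an adjusted p under 0.05, which is 0.555% and 0.159%.

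Sequences at the 5′ ends of 6 of these genes were taken from a table of RefSeq start sites in GRCm38.p6, the patch release of the mm10 build to which the reads were mapped. Those genes are *Kl*, *Kcne2*, *Slc4a5*, *Aqp1*, *Otx2* and *F5*, with 10 start sites among them. *Ttr*, *Folr1*, *Clic6* and *Enpp2* were not matched in that table. Each window runs from 250 bases before to 50 bases after a start site. The windows of *Kl*, *Kcne2* and *Slc4a5* are shown because these genes were among the 5 nearest to *Ttr* in their pattern over the libraries, as ranked further on, and that of *F5* because its groups stood furthest apart relative to their spread. They were chosen with the values known. Capitals mark each CG dinucleotide.
Kl, chr5:150952357-150952656, plus strand: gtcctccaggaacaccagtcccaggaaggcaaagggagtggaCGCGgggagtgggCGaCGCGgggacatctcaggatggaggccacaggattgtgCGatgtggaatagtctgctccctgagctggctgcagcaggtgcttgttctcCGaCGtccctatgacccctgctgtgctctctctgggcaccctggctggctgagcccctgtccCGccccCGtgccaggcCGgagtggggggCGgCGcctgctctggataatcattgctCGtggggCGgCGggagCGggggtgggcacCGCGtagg
Kcne2, chr16:92292139-92292438, plus strand: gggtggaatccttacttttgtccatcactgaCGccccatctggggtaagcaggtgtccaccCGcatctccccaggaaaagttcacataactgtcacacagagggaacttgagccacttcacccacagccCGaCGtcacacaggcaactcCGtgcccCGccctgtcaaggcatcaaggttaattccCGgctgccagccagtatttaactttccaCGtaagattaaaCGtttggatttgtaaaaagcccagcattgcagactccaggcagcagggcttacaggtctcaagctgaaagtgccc
Slc4a5, chr6:83237125-83237424, plus strand: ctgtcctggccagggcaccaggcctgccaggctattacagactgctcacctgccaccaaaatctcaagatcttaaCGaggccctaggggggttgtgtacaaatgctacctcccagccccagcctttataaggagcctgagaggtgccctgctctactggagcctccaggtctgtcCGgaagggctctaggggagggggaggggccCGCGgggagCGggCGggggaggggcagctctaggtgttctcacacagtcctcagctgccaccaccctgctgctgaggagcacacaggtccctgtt
F5, chr1:164151585-164151884, plus strand: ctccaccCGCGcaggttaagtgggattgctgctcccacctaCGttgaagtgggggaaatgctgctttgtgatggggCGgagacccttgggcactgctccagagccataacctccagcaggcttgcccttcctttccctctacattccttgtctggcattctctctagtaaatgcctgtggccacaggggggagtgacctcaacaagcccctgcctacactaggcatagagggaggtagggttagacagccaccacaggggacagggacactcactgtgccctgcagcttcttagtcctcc
The *Kl* window held 19 CG dinucleotides, against 9 for *Kcne2*, 6 for *Slc4a5* and 4 for *F5*. Over all 32851 windows of mouse genes the median was 7, with quartiles of 3 and 20, so all 4 windows shown lay between the quartiles, with *Kl* near the upper quartile. The Otx2 protein is a homeodomain factor of this epithelium, and proteins of its kind prefer the letters TAATCC. These letters, or their reverse complement GGATTA, were found in 7.06% of all windows, with both strands searched. Among the 10 windows they were found in 1, the third start site of *Otx2* itself, at position -211 with the start site at 0. They lie on the strand opposite to the gene and are shown in capitals within 30 bases of the gene's own strand.
Otx2, chr14:48665303-48665332, minus strand: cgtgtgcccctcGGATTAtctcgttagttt
A match is a description of the sequence only.

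As to position in mm10, *Ttr* lies on chromosome 18 from 20665280 to 20674321, *Folr1* on chromosome 7 from 101858331 to 101870788 and *Enpp2* on chromosome 15 from 54838901 to 54952892. *Clic6* and *Kcne2* are both on chromosome 16, from 92485736 to 92541243 and from 92292389 to 92298129. *Slc4a5* and *Aqp1* are on chromosome 6, from 83219828 to 83304945 and from 55336432 to 55348555. *Kl* spans 150952607 to 150993817 on chromosome 5, *Otx2* spans 48657677 to 48673819 on chromosome 14 and *F5* spans 164151838 to 164220277 on chromosome 1. All 10 are annotated as protein coding. *Folr1*, *Enpp2*, *Otx2* and *F5* overlap a gene on the other strand, and the kit and the mapping kept strand. *Clic6*, *Otx2* and *F5* also overlap an annotated transcript on their own strand, so the split of reads there is uncertain.

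Each of these transcripts had reads in every library, except *Slc4a5*, which had 0 reads in PBS 3. The summed amount of these transcripts differed more between pools of the PBS group than between the group means. Their summed level was 470.3 TPM in PBS 1, 2254 TPM in PBS 2 and 150.4 TPM in PBS 3. In the DT group it was 3799 TPM in DT 1, 2652 TPM in DT 2 and 1410 TPM in DT 3. PBS 3 was lowest and DT 1 highest, and PBS 2 lay inside the range of the DT libraries. The sum was thus between 0.0151% and 0.226% of all TPM in the PBS libraries and between 0.141% and 0.381% in the DT libraries. On the CPM scale the mean sum was 507 ± 548 (SD, n = 3) after PBS and 1362 ± 615 (SD, n = 3) after DT, a ratio of means of 2.69. Without PBS 2 that ratio was 6.98. The highest PBS library held 10.5 times the summed CPM of the lowest, compared with 2.67 times among the DT libraries. In bulk samples, more cells of a type cannot be told apart from more RNA per cell.

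**Figure D1:**
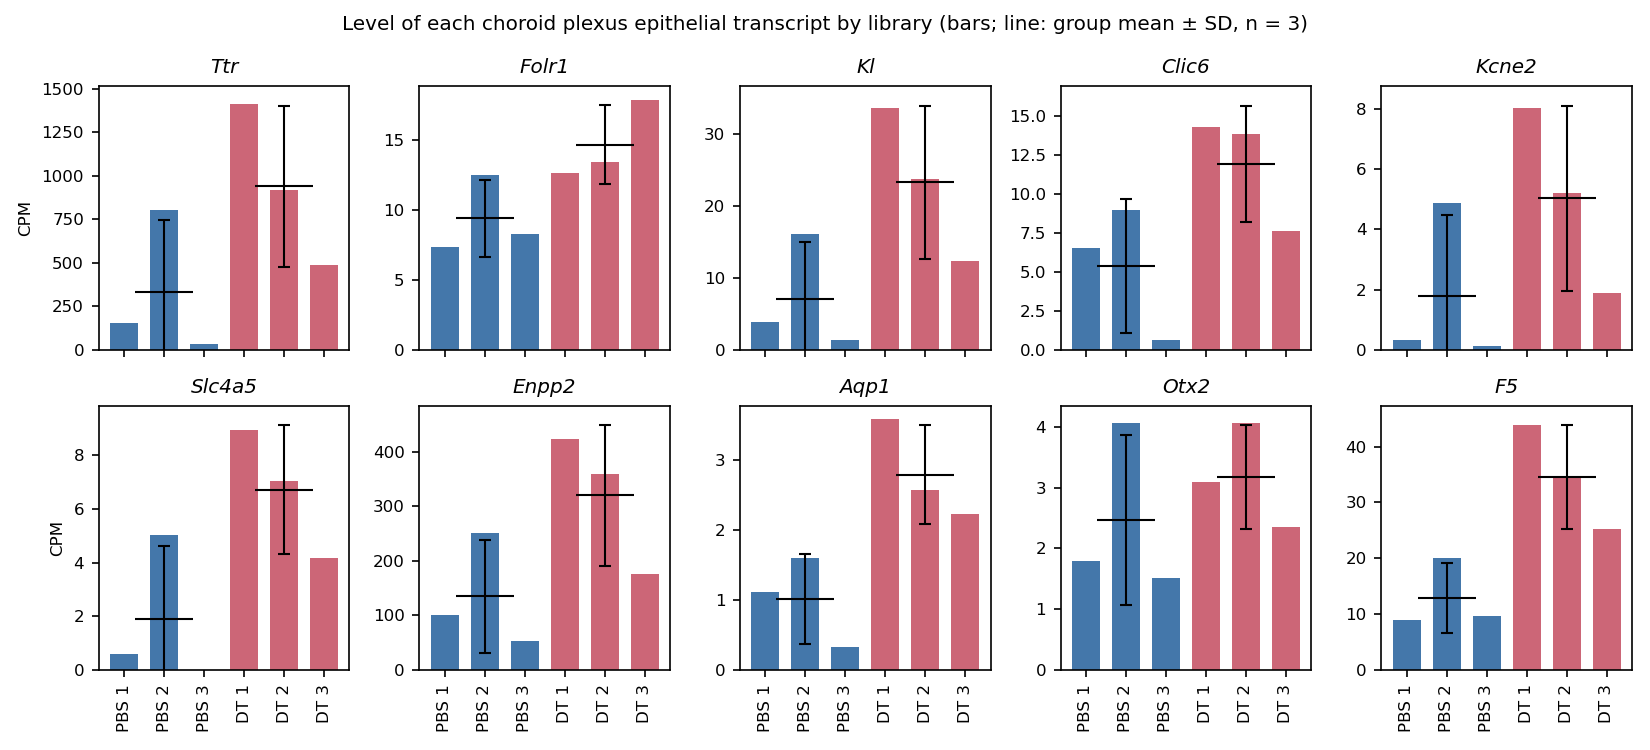
Level of each transcript in CPM, on a linear axis from 0, in the 3 PBS libraries (blue bars) and the 3 DT libraries (red bars); horizontal lines and error bars are the group mean ± SD, n = 3. In all 10 panels PBS 2 is the highest PBS library and every DT bar exceeds PBS 1 and PBS 3, while the bars of PBS 2 and the DT libraries overlap in 7.

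None of the 10 passed the test. With limma on log2(CPM + 0.1), adjusted over all 15137 genes tested, 0 were called in either direction, and 8 had an unadjusted p under 0.05, all higher in the DT group, where 5.91% of genes tested were higher at that level. The adjusted p ran from 0.107 (*F5*) to 0.734 (*Otx2*). The quasi-likelihood test of edgeR and DESeq2, both on recovered reads, also called 0 of the 10, at backgrounds of 0.575% and 1.5% of genes higher. The exact test of edgeR called 1, *F5*, at a background of 1.26%. All 10 had a higher mean in the DT group, and the median of their log2 fold changes was 1.64, while over all genes tested it was -0.01 and 48.7% of genes were above 0. All 10 passed the filter on low values, a mean of at least 0.5 CPM over the 6 libraries, and all 10 also reached 0.5 CPM as a mean of the PBS libraries alone.

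**Figure D2:**
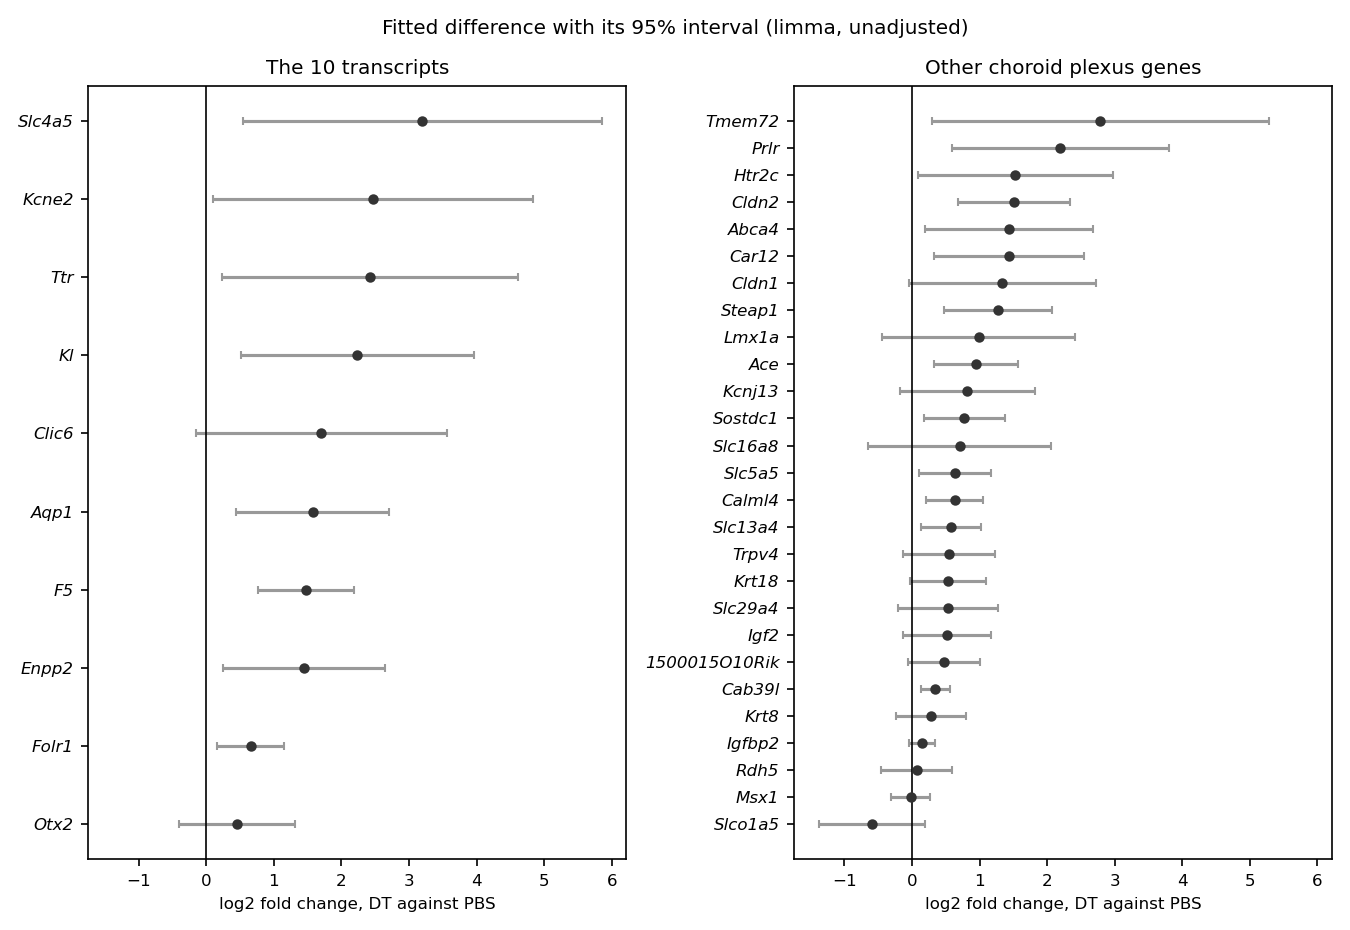
Fitted log2 fold change, DT against PBS, with its 95% interval from limma (unadjusted), for the 10 transcripts (left) and for 27 other choroid plexus genes (right). Intervals of 8 of the 10 lie above 0, those of Clic6 and Otx2 cross it, and the widest belong to Slc4a5, Kcne2 and Ttr.

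Among the secreted products, *Ttr* encodes transthyretin, the carrier of thyroxine and of retinol-binding protein in the cerebrospinal fluid. It had 3307, 26764 and 727 reads in PBS 1, PBS 2 and PBS 3. The DT libraries held 32450, 28228 and 11212 reads. Per length, *Ttr* was at 358 TPM in PBS 1, 1968 TPM in PBS 2 and 80.2 TPM in PBS 3, against 3351, 2257 and 1190 TPM in DT 1, DT 2 and DT 3. It was among the most abundant transcripts of DT 1, at place 18 of all genes by TPM, and came at places 25 and 65 in DT 2 and DT 3. In the PBS libraries its place was 322, 32 and 2328. PBS 2 therefore sat among the DT libraries, above DT 3 and below the other two, and the groups overlapped. The log2 fold change was 2.42 (standard error 0.96, 95% interval 0.23 to 4.61), with an adjusted p of 0.432 from limma. From the recovered reads edgeR and DESeq2 gave a log2 fold change of 1.51. Within the PBS group the highest library had 24.2 times the CPM of the lowest, whereas the ratio of group means was 2.84.

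*Enpp2* encodes autotaxin, a secreted enzyme that makes lysophosphatidic acid and that oligodendrocytes also express. It was the second most abundant of the 10 per length in every library. Its level was 81.8, 216 and 44.5 TPM in PBS 1, PBS 2 and PBS 3 and 349, 305 and 148 TPM in DT 1, DT 2 and DT 3. The order of the libraries was that of *Ttr*, with PBS 2 above DT 3. On the log2 scale the fitted difference was 1.45 ± 0.52 (standard error), with an adjusted p of 0.393 from limma. The oligodendrocyte marker *Mbp* had a different order of libraries, at 3051, 3819 and 2452 reads after PBS and 2699, 2745 and 1767 reads after DT.

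*F5* encodes coagulation factor V, which is made mainly in the liver. Its reads numbered 193, 667 and 211 in the PBS libraries and 1005, 1061 and 578 in the DT libraries. In CPM these were 8.89, 20.1 and 9.69 after PBS and 43.9, 34.5 and 25.2 after DT, so the groups did not overlap. The log2 fold change of 1.48 (standard error 0.31, 95% interval 0.77 to 2.19) came with the smallest p of the 10. Its adjusted p was 0.107 from limma and 0.00259 from the exact test of edgeR, and it was 0.0183 from limma without PBS 2, where 0.384% of genes were called higher. Leaving out any other library gave no call of *F5*.

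Of the receptors, *Folr1* encodes folate receptor alpha, which carries folate across the epithelium. It had 160, 415 and 181 reads after PBS and 290, 413 and 410 reads after DT. At 7.37, 12.5 and 8.31 CPM in the PBS libraries and 12.7, 13.4 and 17.9 CPM in the DT libraries, its groups did not overlap, but the gap between PBS 2 and DT 1 was small. On the TPM scale the groups overlapped, since PBS 2 was at 27.0 and DT 1 at 26.4. *Folr1* differed from the rest in its order, with DT 3 as the highest library and DT 1 as the lowest of its group. Its fitted log2 difference was 0.66 ± 0.22 (standard error), and limma gave an adjusted p of 0.347.

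*Kl* encodes Klotho, a co-receptor for a phosphate-regulating hormone that is also shed as a soluble protein. Its level was 3.91, 16.1 and 1.38 CPM in the PBS libraries and 33.7, 23.8 and 12.3 CPM in the DT libraries. PBS 2 was above DT 3, as for *Ttr*. Its log2 fold change was 2.24 with a 95% interval of 0.52 to 3.95 (adjusted p = 0.365 from limma).

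Among the channels and transporters, *Slc4a5*, a sodium bicarbonate cotransporter of the apical membrane, had a fitted log2 fold change of 3.20 (standard error 1.16, 95% interval 0.54 to 5.85, adjusted p = 0.394 from limma). It had 13, 167 and 0 reads after PBS and 205, 217 and 96 reads after DT. The count of 0 in PBS 3 allows a level of up to 0.138 CPM, the value of 3 reads there, and the fitted fold change depends on the 0.1 CPM added before the logarithm. It was the largest of the 10 with 0.1 CPM added, but was 2.26 with 0.5 CPM and 1.81 with 1 CPM, below *Ttr* at 2.42 and 2.41. From the recovered reads edgeR and DESeq2 gave *Slc4a5* between 1.74 and 1.84. This limit covers counting error only.

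*Kcne2*, a small subunit that modifies potassium channels, had 7, 162 and 3 reads after PBS and 184, 160 and 43 reads after DT. PBS 1 and PBS 3 were thus near the limit of counting, and PBS 2 was within the DT range. *Clic6*, a member of the chloride intracellular channel family, had 141, 298 and 14 reads after PBS and 327, 426 and 174 reads after DT. Here PBS 1 stood well above PBS 3, at 6.49 against 0.643 CPM, and close to DT 3 at 7.59 CPM. Their log2 fold changes were 2.47 for *Kcne2* (standard error 1.04) and 1.70 for *Clic6* (standard error 0.81). From the recovered reads edgeR and DESeq2 gave 1.40 to 1.497 for *Kcne2* and 1.13 to 1.15 for *Clic6*.

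*Aqp1*, the water channel of the apical membrane, had the lowest mean TPM of the 10 in both groups, 1.06 ± 0.689 after PBS and 2.96 ± 0.707 after DT (SD, n = 3). It had 24, 53 and 7 reads after PBS and 82, 79 and 51 reads after DT. At 1.11, 1.60 and 0.322 CPM against 3.58, 2.57 and 2.22 CPM, its groups did not overlap, and the same held for TPM. Its log2 fold change was 1.57 with a 95% interval of 0.44 to 2.70 (adjusted p = 0.327 from limma).

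The transcription factor *Otx2*, needed to form and maintain the choroid plexus, showed the smallest difference. It had 39, 135 and 33 reads after PBS and 71, 125 and 54 reads after DT. PBS 2 was the highest of the 6 libraries at 4.07 CPM, with DT 2 at 4.06 CPM next to it. The log2 fold change was 0.45 with a 95% interval of -0.41 to 1.31 from limma.

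Seen library by library, the full order was the same for 6 of the 10 and differed for the rest, with *Folr1* highest in DT 3 and *Otx2* in PBS 2. *Ttr*, *Kl*, *Clic6*, *Kcne2*, *Slc4a5* and *Enpp2* shared the order DT 1, DT 2, PBS 2, DT 3, PBS 1, PBS 3 from high to low in CPM. PBS 3 was the lowest library for 8 of the 10, where it was the lowest for 17.1% of genes tested, and PBS 1 was the lowest for *Folr1* and *F5*. PBS 2 was the highest PBS library for all 10, compared with 31.7% of genes tested, and lay above the lowest DT library for 7. All DT libraries exceeded both PBS 1 and PBS 3 for all 10, compared with 13.5% of genes tested. The groups did not overlap in CPM for 3 of the 10 (*F5*, *Aqp1* and *Folr1*), at a background of 8.75% of genes tested higher in this way, and in TPM for 2 (*F5* and *Aqp1*), at a background of 9.5%. Non-overlap in the other direction, seen in 7.57% of genes tested, was seen for 0 of the 10. For 6 of the 10 (*Ttr*, *Kl*, *Clic6*, *Kcne2*, *Slc4a5* and *Aqp1*), the lowest library had at most 10% of the CPM of the highest, which held for 1.25% of genes tested.

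The proportions among the 10 were compared within each library, as reads per 1000 *Ttr* reads. *Kl* kept the steadiest ratio, with 25.7, 19.9 and 41.3 reads in PBS 1, PBS 2 and PBS 3 and 23.8, 25.97 and 25.2 in DT 1, DT 2 and DT 3. Outside PBS 3, its highest ratio was 1.304 times its lowest, while *Ttr* itself ran from 152 to 1416 CPM in those libraries. *Kcne2* ranged from 2.12 to 6.05 reads per 1000 *Ttr* reads. *Slc4a5* ranged from 3.93 to 8.56 where it had a read, and its count of 0 in PBS 3 allows up to 4.13, which is above the value in PBS 1 and below those in the other 4 libraries. *Clic6* lay between 10.1 and 15.5 reads per 1000 *Ttr* reads in PBS 2 and the DT libraries, at 19.3 in PBS 3 and at 42.6 in PBS 1.

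*Folr1*, *Otx2* and *F5* were out of proportion to *Ttr* in the library with least *Ttr*. In PBS 3 there were 249 *Folr1* reads per 1000 *Ttr* reads, against 8.94 in DT 1, a 27.9-fold range over the libraries. *Otx2* ran from 2.19 in DT 1 to 45.4 in PBS 3, and *F5* from 24.9 in PBS 2 to 290 in PBS 3. *Enpp2* had 1585 reads per 1000 *Ttr* reads in PBS 3 and between 299 and 652 in the other libraries. *Aqp1* ran from 1.98 in PBS 2 to 9.63 in PBS 3, where it had 7 reads. For comparison, *Foxj1*, a transcription factor of ciliated ependymal cells, ran from 66.5 in DT 1 to 2125 in PBS 3, and *Mbp*, the myelin basic protein gene, from 83.2 in DT 1 to 3373 in PBS 3. By TPM, *Ttr* was 53.3% of the sum of the 10 in PBS 3, 76.2% in PBS 1 and between 84.4% and 88.2% in the other 4 libraries. The share of *Folr1* was 12.1% in PBS 3, 3.22% in PBS 1 and 0.6955% in DT 1.

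**Figure D3:**
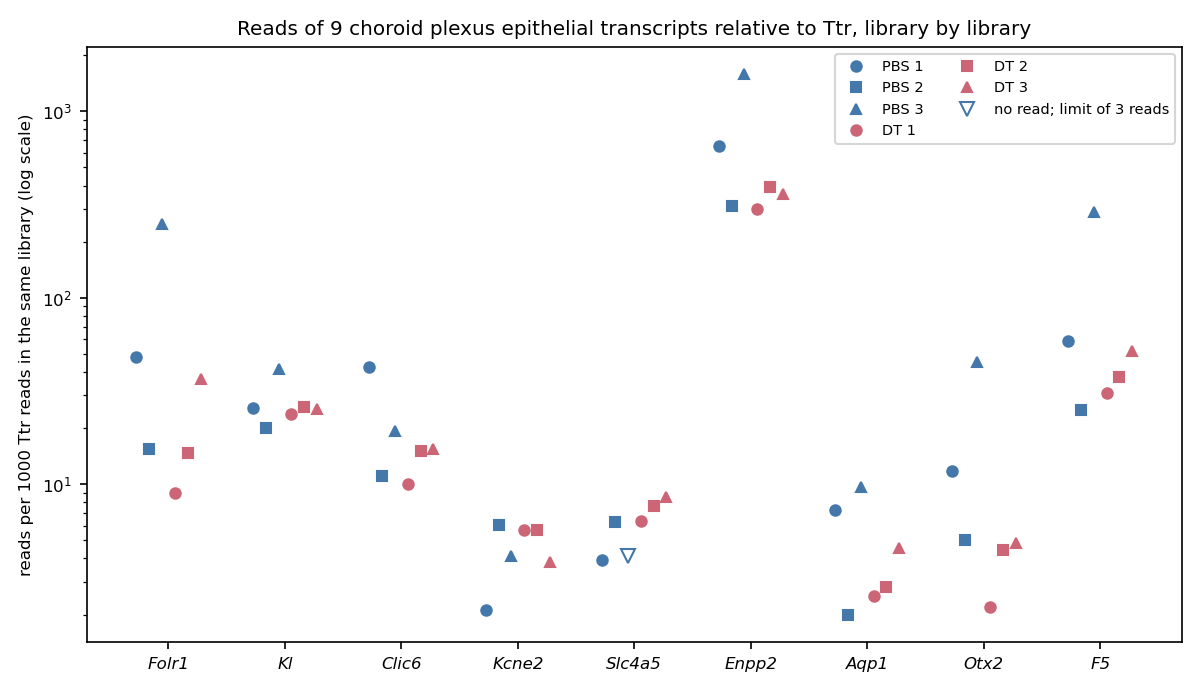
Reads of the other 9 transcripts per 1000 Ttr reads of the same library, on a log axis, with blue points for PBS and red for DT and 1 symbol per replicate number; the open triangle is the limit set by 3 reads for Slc4a5 in PBS 3, where it had none. Kl keeps nearly the same ratio in all libraries but PBS 3, where it is highest, and Folr1, Otx2, F5, Enpp2 and Aqp1 are also highest in PBS 3.

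Genes whose level followed that of *Ttr* were ranked by the root mean square difference of log2(CPM + 0.1), centred on its mean over the 6 libraries. Of 15136 genes ranked, *Kl* came first at a difference of 0.35, *Kcne2* was at place 3, *Slc4a5* at 5, *Clic6* at 7, *Enpp2* at 12, *Aqp1* at 14, *F5* at 33, *Otx2* at 90 and *Folr1* at 280. The 10 nearest other genes were *Prlr*, *Tmem72*, *Cdh3*, *Htr2c*, *Gm16548*, *Atp6v0c*, *Abca4*, *Cpxm2*, *Rbm47* and *Ugt1a7c*, at differences from 0.43 to 0.96. *Prlr*, *Tmem72*, *Htr2c* and *Abca4* were among the 28 other choroid plexus genes listed, which held 4 of these 10. *Gm16548* is the noncoding transcript on the strand opposite *F5*, with 4, 12 and 0 reads after PBS and 44, 29 and 14 reads after DT. *Atp6v0c*, a subunit of the vacuolar proton pump, had 60, 877 and 58 reads after PBS and 2227, 723 and 750 reads after DT. The measure rests on 6 libraries.

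A further 28 choroid plexus genes were listed by role, and 27 passed the filter (*Cldn3* did not, with at most 12 reads in any library). Of these 27, 25 had a fitted difference above 0 and 2 below, with a median log2 fold change of 0.64. None was called by limma or by the quasi-likelihood test of edgeR. Of the 27, 13 had an unadjusted p under 0.05, all higher in the DT group, against 5.91% of genes tested. The exact test of edgeR called 2 (*Cldn2* and *Steap1*), where it called 1.26% of genes higher, and DESeq2 called 3 (*Cldn2*, *Ace* and *Calml4*), where it called 1.5%. Without PBS 2, limma called 3 (*Cldn2*, *Prlr* and *Car12*), and 0.384% of all genes tested. The groups did not overlap for 7 of the 27, all higher in the DT group, against 8.75% of genes tested. The lowest library was PBS 3 for 13 of the 27, against 17.1% of genes tested. It was PBS 1 or PBS 3 for 24 of the 27, a count for which no share over all genes was taken.

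By role, the log2 fold changes of 10 transporters and channels had a median of 0.67, and 9 were above 0. The exception was *Slco1a5*, an organic anion transporter, at -0.59. The 4 secreted products had a median of 0.49 and the 7 receptors and enzymes a median of 0.94, all above 0. Among the receptors and enzymes were *Prlr*, the prolactin receptor, at 2.20 and *Htr2c*, a serotonin receptor, at 1.53. The 4 claudin and keratin genes tested had a median of 0.94, with *Cldn2*, a claudin of leaky tight junctions, at 1.51. The transcription factors were *Lmx1a* at 0.99 and *Msx1* at -0.02.

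The 8 of these genes with the highest mean TPM had log2 fold changes between -0.02 and 0.64. *Igfbp2*, which encodes a binding protein for insulin-like growth factors and which astrocytes also express, had a mean level of 276 ± 26.1 TPM in the PBS group and of 306 ± 21.7 TPM in the DT group (SD, n = 3 each). In the same order, *Calml4* was at 53.02 ± 11.5 and 82.0 ± 16.2 TPM, *Igf2* at 40.4 ± 16.9 and 54.9 ± 7.98 TPM, and *Msx1* at 49.2 ± 6.47 and 48.9 ± 5.90 TPM. *Rdh5*, *Cab39l*, *Krt18* and *1500015O10Rik* completed the 8, at log2 fold changes of 0.07, 0.34, 0.54 and 0.48. None of these 8 passed the threshold in limma.

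Markers of other cells were summed in the same libraries. The 10 ependymal genes, all highest in DT 3, summed to 714, 889 and 862 TPM in PBS 1, PBS 2 and PBS 3 and to 952, 986 and 1597 TPM in DT 1, DT 2 and DT 3. All 10 had a fitted difference above 0 (median 0.50), 7 did not overlap between the groups (8.75% of genes tested), and limma called none, with 6 at an unadjusted p under 0.05 (5.91% of genes tested). Their order differed from that of *Ttr*, which was lowest of its group in DT 3, and *Folr1* alone of the 10 choroid plexus transcripts was highest in DT 3 with them. The border macrophage genes summed to between 12.9 and 24.6 TPM after PBS and between 57.5 and 77.6 TPM after DT, and limma called 3 of the 6 tested higher (*Mrc1*, *Lyve1* and *F13a1*, log2 fold changes of 1.49, 3.21 and 1.38). Of the 9 microglial genes, 5 were called lower (*Siglech*, *P2ry12*, *Cx3cr1*, *Csf1r* and *Itgam*). Over all genes tested, limma called 0.555% higher and 0.159% lower.

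The other lists held no call by limma. The 8 oligodendrocyte genes summed to between 462 and 572 TPM after PBS and between 408 and 504 TPM after DT, and their median on the log2 scale was -0.32. The 9 endothelial genes summed to between 670 and 1056 TPM after PBS and between 565 and 673 TPM after DT, with a median of -0.39. Of these 9, 8 were below 0. The exception was *Plvap*, a marker of fenestrated capillaries such as those of the choroid plexus, at 0.58 (adjusted p = 0.46 from limma). The 8 fibroblast genes had a median of 0.02, and the pericyte and neuronal lists each had a median of 0.07. The erythrocyte genes varied from 14.7 to 613 TPM, highest in PBS 3, and 2 of the 6 had no read in any library. Of these lists, the summed ependymal and border macrophage genes were higher in each DT library than in each PBS library. Their part in the values of the choroid plexus transcripts was not tested.

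**Figure D4:**
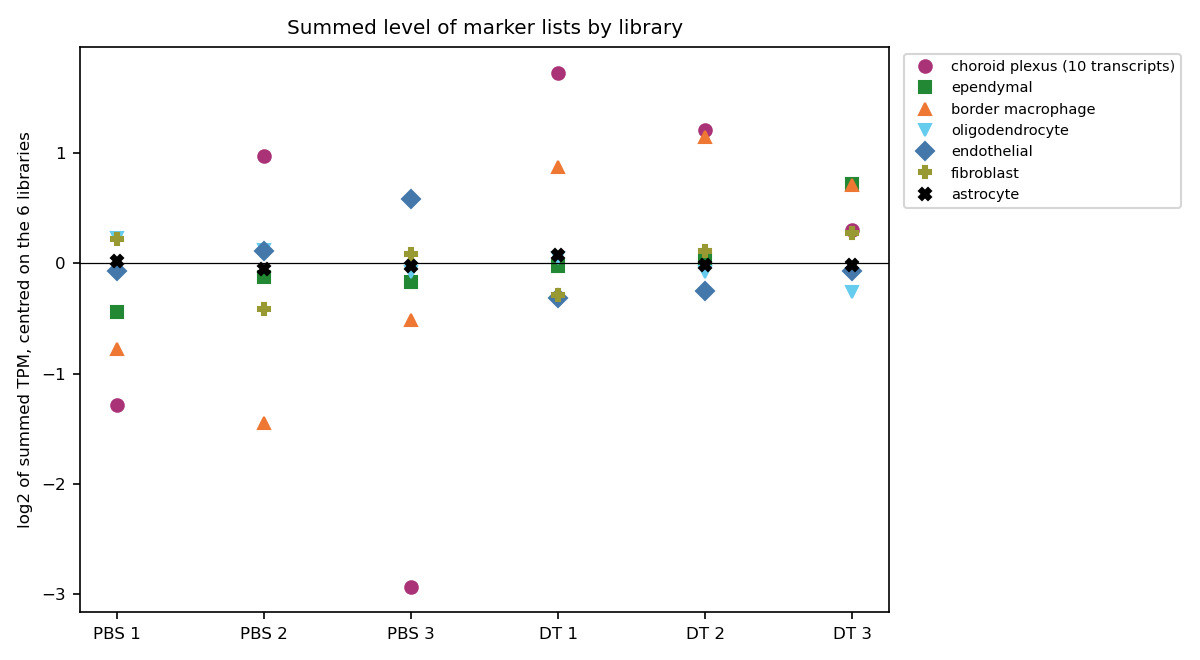
Log2 of the summed TPM of each marker list, centred on its mean over the 6 libraries, for the 3 PBS and 3 DT libraries. The choroid plexus points are highest in DT 1 and lowest in PBS 3, the ependymal points are highest in DT 3, and the astrocyte points stay near 0 in every library.

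With 3 libraries a group, single pools set much of the estimate. Leaving out PBS 3 lowered the log2 fold change of *Ttr* from 2.42 to 1.29 and leaving out PBS 2 raised it to 3.59. For *Clic6* the range over the 6 libraries left out in turn was 0.58 to 2.38, for *Slc4a5* 1.78 to 4.62 and for *Otx2* 0.19 to 0.87, and for *F5* it was 1.26 to 1.85. No sign changed for any of the 10. When the mean level of the 27 other choroid plexus genes in each library was fitted beside the group, the log2 fold changes of *Ttr*, *Kl*, *Clic6*, *Kcne2*, *Slc4a5*, *Enpp2* and *Otx2* were below 0 and those of *Folr1*, *F5* and *Aqp1* above it, at 0.29, 0.46 and 0.13, and none of the 10 was called (0.126% of genes were called higher in that fit). That mean level did not overlap between the groups on the centred log2 scale. It ran from -0.86 to 0.17 in the PBS libraries and from 0.24 to 0.60 in the DT libraries. In these 6 libraries this fit therefore cannot cleanly separate the group from that mean level. The mean gives each of the 27 genes equal weight. The summed level of the 10 transcripts did overlap, at 2254 TPM in PBS 2 and 1410 TPM in DT 3.

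**Figure D5:**
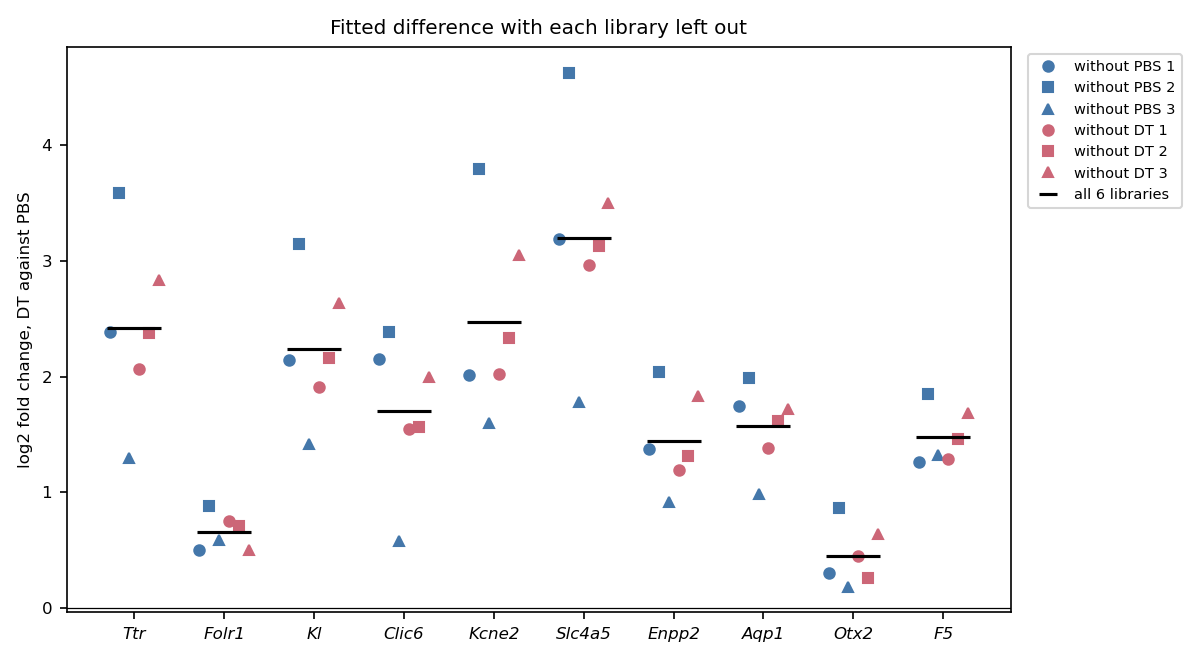
Log2 fold change of each transcript, DT against PBS, from limma with each of the 6 libraries left out in turn (points) and with all 6 (black lines). Values lie above 0 in every case, are highest without PBS 2 for every transcript, and are lowest without PBS 3 for Ttr, Kl, Clic6, Kcne2, Slc4a5, Enpp2, Aqp1 and Otx2.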

How the data were processed

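Astrocyte RNA from 3 PBS and 3 DT pools was sequenced with a stranded kit. According to the submitters' processing notes and the study's methods, the authors used Trim Galore 0.5.0, FastQC 0.11.8, HISAT2 2.1.0 on mm10, bedtools 2.25.0 to remove ribosomal reads, StringTie 1.3.5 and edgeR 3.24.3 in R 3.5.1. The authors deposited TPM and a signal per gene that is CPM over TMM-scaled library sizes (factors between 0.974 and 1.02). The design had assumed CPM without this scaling, and the same test was kept. Columns with the fold changes, q-values and p-values of the comparison made by the authors were left unused. Whole reads were recovered from the deposited signal for 100% of values, within 0.0006 CPM.

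Genes with a mean of at least 0.5 CPM were compared on log2(CPM + 0.1), a scale on which the change of genes with few reads depends on the pseudocount, with limma 3.58.1 in R 4.3.3, two-sided, with a variance trend and Benjamini-Hochberg adjustment. Alternatives were the replicate number as a block, a choroid plexus covariate, each library left out, TPM, pseudocounts of 0.5 and 1, a filter at 2 CPM or none, quantile normalization, limma without the trend, and edgeR 4.0.16 and DESeq2 1.42.0 on recovered reads. Tests were checked on simulated data in which every gene had the same dispersion between libraries. That check does not cover transcripts that vary between pools as widely as many of these 10. The 10 transcripts, the marker lists and the tests were chosen with earlier results of these data known. Named are all 10, the 8 other choroid plexus genes with the highest mean TPM, listed genes past the threshold, the 10 genes nearest to *Ttr* and fixed markers of other cells. Other choroid plexus genes were named after their values were seen. Gene positions are from GENCODE M21. Promoter sequences are from RefSeq, GRCm38.p6.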

Additional observations from a re-analysis of the deposited data

How the results depend on the processing

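The 10 transcripts were compared under 18 alternatives (17 for *Aqp1*, which a mean of at least 2 CPM leaves out). No call was made for 9 of the 10 under any of them, and *F5* was called by the exact test of edgeR (log2 fold change 1.42, adjusted p = 0.00259) and by limma without PBS 2 (1.85, adjusted p = 0.0183). With the choroid plexus covariate the log2 fold changes reversed for *Ttr* (-1.11), *Kl* (-0.52), *Clic6* (-0.74), *Kcne2* (-1.27), *Slc4a5* (-0.96), *Enpp2* (-0.43) and *Otx2* (-0.66), and the median of the 10 was -0.59 rather than 1.64. The covariate was computed without the group labels, but its values did not overlap between the groups. Leaving out libraries gave medians from 1.14 to 2.21 and ratios of summed CPM from 1.93 to 6.98, the highest without PBS 2. It gave 0 to 1 calls among the 10 and 0 to 3 among the other choroid plexus genes, again with the highest counts without PBS 2. The exact test of edgeR gave 1 and 2 calls in these sets and DESeq2 gave 0 and 3. Over all genes, 84 higher and 24 lower became 35 and 11 without a variance trend, 19 and 6 with the covariate, 191 and 72 by the exact test and 227 and 98 by DESeq2, and 39 to 72 and 9 to 20 with a library left out, the fewest higher without DT 1 (39) or DT 2 (40) and the fewest lower without PBS 1 (11), PBS 2 (9), PBS 3 (10) or DT 2 (10). The cause was not tested. On recovered reads, edgeR and DESeq2 gave lower log2 fold changes than limma for *Slc4a5* (1.74 to 1.84 against 3.20), *Kcne2* (1.40 to 1.497 against 2.47), *Ttr* (1.51 against 2.42) and *Clic6* (1.13 to 1.15 against 1.70). A pseudocount of 1 gave 1.81 for *Slc4a5*, 1.39 for *Kcne2* and 0.95 for *Aqp1*. The replicate block gave 79 and 30 and no call among the 10. It lowered the standard errors of the 10, from 0.96 to 0.62 for *Ttr* and from 0.52 to 0.27 for *Enpp2*. Their adjusted p from limma then ran from 0.0714 (*F5*) and 0.0838 (*Enpp2*) to 0.478 (*Otx2*). Whether numbers pair the libraries is not stated. Over all genes tested, the deviations of same-numbered libraries correlated at 0.115, 0.0105 and 0.118. Depth limits *Slc4a5*, *Kcne2* and *Aqp1* in PBS 3, with 0, 3 and 7 reads.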

Other observations

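These values were sought after the main results had been seen, and each describes 6 libraries with no test. Among the 100 genes nearest to *Ttr* in pattern, of 15136 ranked, were 8 of the other 9 transcripts (all but *Folr1*) and 12 of the 27 other choroid plexus genes tested. They also held 8 genes that limma called higher in the DT group, where it called 0.555% of genes tested. These were *Tgm1*, *Ccl2*, *Cxcl5*, *Ccl12*, *Aspg*, *Plau*, *Fcgr2b* and *A2m*. The mean of *Ttr* was itself higher in the DT group, so a choice by likeness to it favours genes that are higher there. *Igfbp2* was at place 3139 and *Slco1a5* at place 14723 of the same ranking.

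*Folr1* lay at a root mean square difference of 1.58 from *Ttr*, by a measure that also counts the size of a change. The 10 genes nearest to *Folr1* were within 0.117 of it, and those nearest to *Ttr* within 0.96 of *Ttr*. At these distances the 2 sets could not share a gene, so their difference is no separate result. The nearest was *Lrrc43*, at a root mean square difference of 0.07 on the centred log2 scale, with 68, 153 and 70 reads after PBS and 112, 170 and 166 reads after DT. *Cfap43*, which encodes a protein of motile cilia, was at place 5, with a log2 fold change of 0.48, and *Cd14* was at place 3. None of the 10 nearest was in the choroid plexus lists.

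For *F5*, 4 of the 5 nearest genes were listed choroid plexus genes. They were *Steap1* at a difference of 0.21, *Car12*, *Cldn2* and *Ace*. *Sulf1*, an extracellular sulfatase, was at place 2, with 215, 563 and 158 reads after PBS and 656, 812 and 423 reads after DT. *Plau*, which encodes urokinase, was at place 10 and was called higher in the DT group (log2 fold change 1.59, adjusted p = 0.00592 from limma).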
